A study of Homo sapiens with 3 samples.

Results

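miR-101 is a conserved microRNA that is made from a pair of hairpin genes, hsa-mir-101-1 and hsa-mir-101-2. In small RNA of MV4-11 cells it was described here through 5 rows of the 1512 in the deposited tables. These were both rows of hsa-miR-101-3p and the row of hsa-miR-101-5p, 3 of 851 mature rows, and both hairpins, 2 of 661 hairpin rows. The rows were taken by name, and miR-101 itself was chosen on its levels and arm counts in these same libraries. Its values are therefore given as a description, without tests. MV4-11 is a human FLT3-ITD+ acute myeloid leukemia line that also carries the MLL-AF4 fusion. They carried an empty lentiviral CRISPR-Cas9 vector (EV), and RNA was taken after 2 weeks of growth. All 3 libraries came from triplicate cultures of this group, labelled WT, so there was no uninfected or edited group to compare with.

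A microRNA gene is transcribed as a longer RNA, from which Drosha cuts a hairpin and Dicer then cuts a short duplex. The strands of this duplex come from the 5p and 3p arms of the hairpin. Argonaute usually keeps one of these strands as the guide, and the other is degraded. The guide finds its targets mainly through its seed, the bases near its 5′ end. miR-101-3p is known as a repressor of EZH2, the histone H3 lysine methyltransferase of Polycomb repressive complex PRC2. Neither EZH2 RNA nor protein was measured in these libraries.

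The mature strands are shown first because the arm and copy comparisons rest on them. They were read 5′ to 3′ from RefSeq on build GRCh38.p14, with the seed (bases 2 to 8) in capitals. hsa-miR-144-3p is included because it was the only other mature miRNA among 2370 names in that table with the same bases 2 to 7.
hsa-miR-101-3p: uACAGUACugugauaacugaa
hsa-miR-101-5p: cAGUUAUCacagugcugaugcu
hsa-miR-101-2-5p: uCGGUUAUcaugguaccgaugc
hsa-miR-144-3p: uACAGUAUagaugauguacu
The seeds of miR-101-3p and miR-144-3p had 6 of 7 bases in common, and no other name had all of bases 2 to 8 of miR-101-3p. The 5p arms of the hairpins were separate sequences, with 16 identical positions in an alignment of 23. hsa-miR-101-2-5p, a name taken here from RefSeq, had no row in the mature table. Whether miRBase 21, on which the authors counted, holds that name was not checked, so the missing row does not show that this arm was absent.

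The hairpins are shown with the 3p arm in capitals to make plain how much of a read tells the copies apart.
MIR101-1: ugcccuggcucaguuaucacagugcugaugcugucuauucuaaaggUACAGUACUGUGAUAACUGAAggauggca
MIR101-2: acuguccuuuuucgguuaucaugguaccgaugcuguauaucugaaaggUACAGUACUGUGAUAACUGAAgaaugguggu
The 3p arm was identical in both, and the identical stretch ran on for 5 bases before it and 1 base after it, 27 bases in all. A read inside that stretch carries nothing that assigns it to a copy. Over the whole hairpins, 76.3% of 80 aligned positions were identical.

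MIR101-1 lies at chr1:65058434-65058508 on the minus strand of GRCh38.p14, and MIR101-2 at chr9:4850297-4850375 on the plus strand. In GENCODE 29, which uses the same assembly, no other gene overlapped MIR101-1. The closest protein-coding genes were AK4, 89040 bp away on the opposite strand, and the kinase gene JAK1, 91929 bp away on the same strand. The MIR3671 hairpin lay 591 bp from MIR101-1 on the same strand, and hsa-miR-3671 had no row in the mature table. MIR101-2 lay within RCL1, a gene of ribosomal RNA processing, on the same strand and overlapping 0 of its exons, which places it in an intron. An annotated antisense transcript, AL158147.1, covered the same position on the other strand. The deposited rows carry no coordinates, so these positions describe the annotated genes and not the authors' alignments.

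The link to EZH2 can be read in the annotated transcript. The 3′ untranslated region of EZH2 (261 bases, GENCODE 29) held 2 matches to guacugu, the complement of the miR-101-3p seed, searched on the transcript strand only. Each is shown with the match in capitals.
EZH2 site 1: cuucaggaaccucgaGUACUGUg
EZH2 site 2: uucugaauuugcaaaGUACUGUa
The matches began 59 and 114 bases after the stop codon, and the second was followed by an A, which Argonaute recognises opposite the first guide base without pairing. Among 15162 genes with a 3′ untranslated region at least as long, 1.40% held this motif in their first 261 bases and 0.0396% held it at least 2 times. EZH2 had 0 matches to the complement of bases 2 to 8 of miR-144-3p, but both sites contain uacugu, the complement of the bases 2 to 7 that miR-144-3p shares. Over their whole 3′ untranslated regions, EED (211 bases) and RBBP7 (694 bases) each held 1 match to the miR-101-3p motif, and EZH1 (2257), SUZ12 (2042), RBBP4 (6506) and JARID2 (1770) held 0. The share above is for windows of 261 bases and does not apply to these lengths. These are sequence matches, and repression at them was not measured.

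The libraries had 12694823, 10991953 and 11682129 counts on mature rows in replicates 1, 2 and 3. All 4 miRNAs listed as blood markers (miR-142-3p, miR-142-5p, miR-223-3p and miR-155-5p) were present, with a summed level between 1415521 and 2545311 FPKM. Of 7 markers of other cells, 6 had a row, with a summed level between 324985 and 385715 FPKM. Most of the latter was miR-9-5p, listed here as a neural marker, at 315690 to 373276 FPKM. Whether it marks other cells in this line was not tested. The sum of blood markers was lowest in replicate 1, as was each of the 4. There miR-155-5p gave 957982 FPKM of the sum. miR-142-3p was at 209151 FPKM in replicate 1, against 676033 and 701152 FPKM in replicates 2 and 3. The part of this difference in the values below was not tested.

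miR-101-3p was an abundant miRNA of these cells, and miR-101-5p was close to the limit of detection. The summed count of the 3p rows was 92494 in replicate 1, 86118 in replicate 2 and 86659 in replicate 3. As a share of the mature counts, these were 0.729% (0.724 to 0.733), 0.783% (0.778 to 0.789) and 0.742% (0.737 to 0.747) in the same order, with Wilson 95% limits in brackets. Intervals here and below cover counting error only and treat each read as independent. Reads without molecular identifiers include PCR copies, so the intervals can be too narrow. In FPKM, the authors' count scaled by feature length and library size, the level was 364223, 391649 and 370819, a mean of 375564 ± 14315 (SD, n = 3). On this scale the replicates lay close together with replicate 2 the highest, whereas after median-of-ratios scaling the coefficient of variation was 19.5% instead of 3.81% and replicate 1 was the highest.

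miR-101-5p had 3, 12 and 11 counts in replicates 1, 2 and 3. The exact Poisson 95% intervals of these counts were 0.619 to 8.77, 6.2 to 21 and 5.49 to 19.7, and all 3 overlapped. Its level was 11.3, 52.0 and 44.8 FPKM, a mean of 36.0 ± 21.7 (SD, n = 3). By mean FPKM it ranked 728 of 783 mature names. The spread of the 5p arm between replicates was of the order of its counting error, in contrast to the 3p arm.

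The hairpin rows gave the same picture as the 3p rows. hsa-mir-101-1 had 45237, 42025 and 42442 counts, and 49500 ± 1802 FPKM (SD, n = 3). hsa-mir-101-2 had 47380, 44215 and 44342 counts, and 49223 ± 1941 FPKM (SD, n = 3). The hairpins ranked 39 and 40 of 661 by mean FPKM, and their means differed by less than either SD. hsa-mir-101-2 was the higher in counts and the lower in FPKM in each replicate, because FPKM divides by a length of 78 bases for this hairpin and 74 for hsa-mir-101-1. Hairpin and mature rows count the same short reads, so a hairpin row is no measure of precursor RNA.

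**Figure D1:**
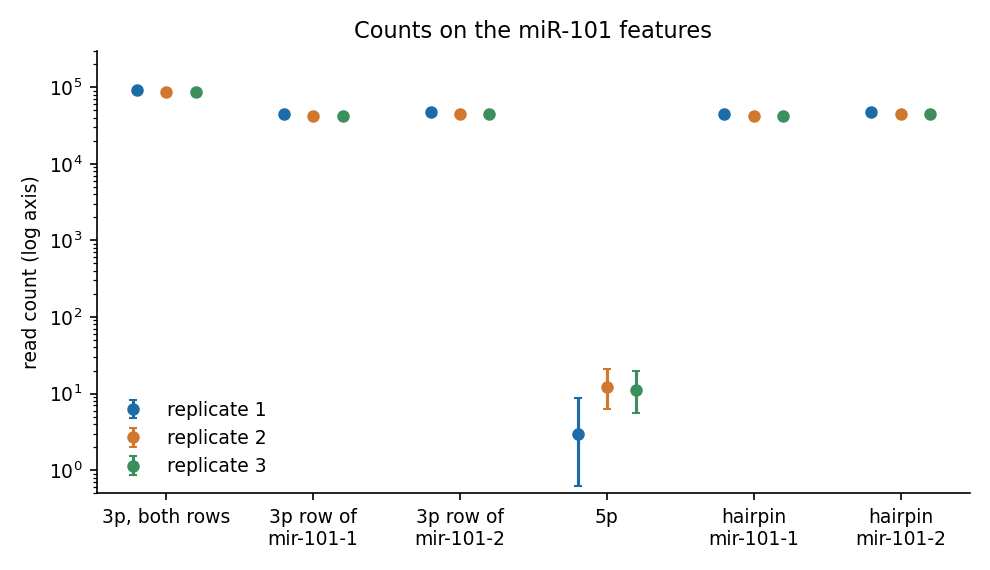
Read counts (log axis) on the miR-101 features in each of 3 replicates, with exact Poisson 95% intervals as bars. The 3p rows and the hairpins each sit between 41935 and 92494 counts with bars smaller than the points, while the 5p arm sits at 3 to 12 counts.

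By mean FPKM miR-101-3p ranked 24 of 783 mature names, and its rank was 20, 24 and 27 in replicates 1, 2 and 3. The most abundant miRNA, miR-21-5p, was above it by 26.0-fold to 50.4-fold. The order around it was poorly resolved. miR-30e-5p, 3 places above, had 436555 ± 30813 FPKM (SD, n = 3) and was higher in each of 3 replicates, by more than the larger SD of the pair. miR-7-5p (426746 ± 112951 FPKM) and miR-25-3p (418075 ± 167163 FPKM) above it differed from it by less than the larger SD. So did the next names below, miR-425-5p (353435 ± 98656 FPKM), miR-222-3p (353351 ± 71194 FPKM) and miR-378a-3p (347358 ± 40646 FPKM). Each of these 5 was above miR-101-3p in 1 or 2 of 3 replicates.

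The 3p reads were split almost evenly between the rows, with a small and steady excess for hsa-mir-101-2. The rows carry the same name, and they were tied to hairpins by containment. The larger row exceeded the whole count of hsa-mir-101-1 (hairpin minus row was -2125, -2158 and -1863 counts) and so could only lie within hsa-mir-101-2. In none of 535 single-copy hairpins did an arm exceed its hairpin. The row of hsa-mir-101-1 had 45132, 41935 and 42354 counts and that of hsa-mir-101-2 had 47362, 44183 and 44305. hsa-mir-101-2 thus held 51.2% (50.9 to 51.5), 51.3% (51.0 to 51.6) and 51.1% (50.8 to 51.5) of the 3p reads, again with Wilson 95% limits. The mean was 51.2% ± 0.0899 (SD, n = 3). All 3 intervals lay above 50% and overlapped each other.

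Other names with 2 mature rows set the scale for this split. Of 44 such names, 9 (20.5%) had an interval off 50% on the same side in all 3 libraries, miR-101-3p among them. Among the 10 with at least 100000 counts, 5 did so, and the share of the higher row over all libraries reached 59.0% at most. The median of these 10 was 50.3%, and the 51.2% of miR-101-3p was the third most uneven, after miR-128-3p at 59.0% and miR-92a-3p at 51.6%. None of the 44 names had equal counts in both rows in all libraries. How the authors assigned reads that match several places is not given in the sources used here. The split is therefore a property of the count table, and which gene made the reads cannot be told apart from how the aligner placed them.

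**Figure D2:**
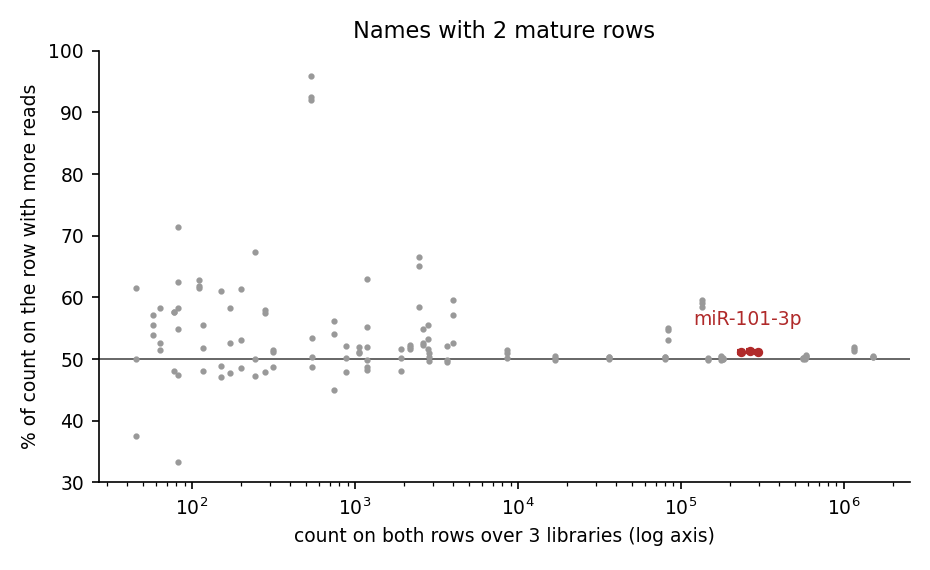
Share of counts on the row with more reads over all libraries (y axis, %) against the count on both rows (x axis, log) for 44 names with 2 mature rows, each point a replicate. miR-101-3p (red, Wilson 95% intervals, points spread sideways for clarity) lies at 51.1% to 51.3%, just above the line at 50%.

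The 3p arm outnumbered the 5p arm in every library by a wide margin. With both 3p rows summed, the ratio of 3p to 5p counts was 30831 in replicate 1 (exact 95% interval 10550 to 149507). The other libraries, replicates 2 and 3, gave 7177 (4108 to 13889) and 7878 (4403 to 15782). The ratio was highest in replicate 1, where 3 counts of the 5p arm set it, and the intervals of all 3 libraries overlapped. Over pooled counts of 265271 and 26 the ratio was 10203 (6963 to 15619). On the log2 scale the libraries gave 14.91, 12.81 and 12.94, a mean of 13.55 ± 1.18 (SD, n = 3). Without replicate 1 the mean was 12.88.

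The ratio sets the 3p arms of both copies against the 5p arm of hsa-mir-101-1 alone, and it was therefore also computed from the counts placed on each hairpin. For hsa-mir-101-1 the ratio of its 3p row to miR-101-5p was 15044 (exact 95% interval 5147 to 72953), 3495 (2000 to 6764) and 3850 (2152 to 7714) in replicates 1, 2 and 3. For hsa-mir-101-2, whose 5p arm had no row, only a bound could be set. The hairpin had 18, 32 and 37 counts outside its 3p row, and if all of them were 5p reads the ratio would be 2631 (1665 to 4440), 1381 (978 to 2019) and 1197 (869 to 1701). With these counts added to the 5p side for both copies together, the mean log2 ratio was 11.29. Because the 3p reads cannot be assigned to a copy by sequence, these ratios follow where the reads were placed and are no measure of the arm excess of each gene.

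Among 195 pairs with both arms above 0 in all libraries, 90 (46.2%) had more 3p than 5p counts in every library, and miR-101 had the highest mean log2 ratio toward 3p. It was chosen with this ratio known, so its place is given without a test. The ranked ratio divides the 3p rows of both copies by the 5p arm of hsa-mir-101-1 alone. With all hsa-mir-101-2 counts outside its 3p row added to the 5p side, replicates 1, 2 and 3 gave 12.10, 10.93 and 10.82. For miR-19a, with no such counts added, they gave 10.41, 10.36 and 11.18, which is above miR-101 in replicate 3. The arms were joined by name, so those whose names differ by a copy number, such as miR-24-3p and miR-24-2-5p, formed no pair. Hairpins with an arm too rare to have a row did not enter either, so the place holds only among the pairs compared. The next pairs were miR-19a at 10.65 ± 0.46, miR-23a at 9.47 ± 1.04 and miR-29a at 9.33 ± 0.33 (SD, n = 3). The 5p arm of miR-19a was as thinly covered as miR-101-5p, with 5, 12 and 8 counts. The median over the 90 pairs was 3.42. The SD of miR-101 between libraries was 1.18, against a median of 0.52 over all pairs, and 21 pairs had a larger one.

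**Figure D3:**
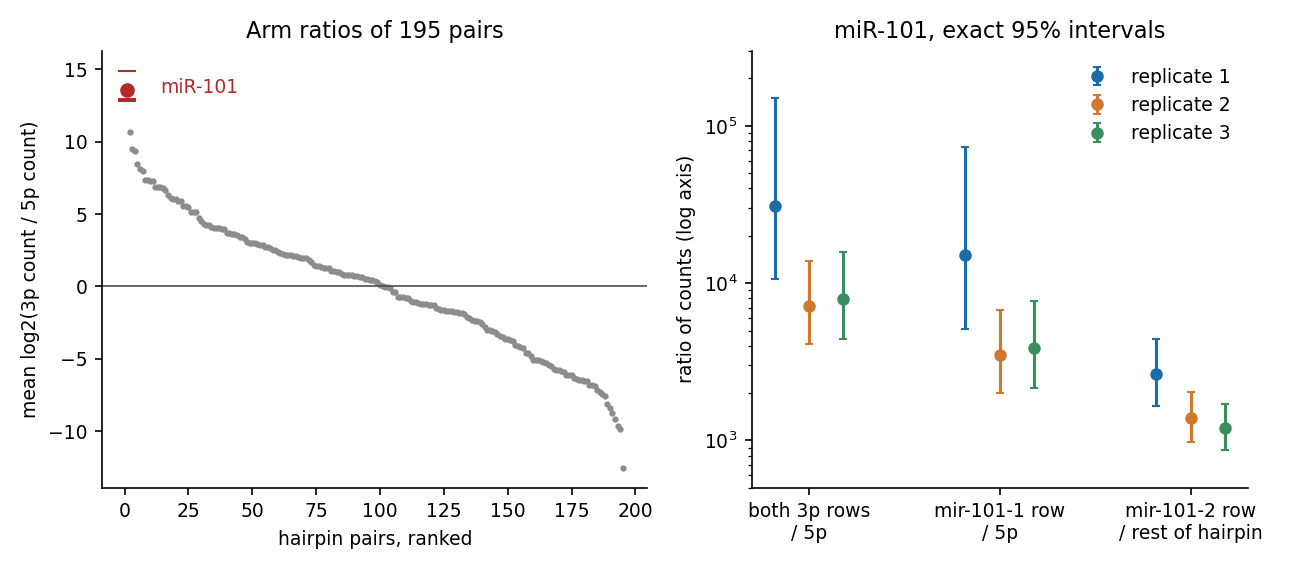
Left, mean log2 ratio of 3p to 5p counts for 195 hairpin pairs ranked from 3p to 5p, with miR-101 in red at 13.55 and its replicates as dashes. Right, ratio of counts (log axis) for miR-101 in 3 replicates with exact 95% intervals: both 3p rows over the 5p arm, the hsa-mir-101-1 row over the 5p arm, and the hsa-mir-101-2 row over all its other hairpin counts, running from 1197 to 30831.

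Few reads of either hairpin lay outside the listed arms, and hsa-mir-101-1 had more of them. After its 3p row and the 5p arm were taken off, hsa-mir-101-1 kept 102, 78 and 77 counts in replicates 1, 2 and 3. These were 0.225% (Wilson 95% interval 0.186 to 0.274), 0.186% (0.149 to 0.232) and 0.181% (0.145 to 0.227) of the hairpin. They were more numerous than the reads of the 5p arm itself in each replicate. In hsa-mir-101-2 the counts outside the 3p row were 0.0380% (0.0240 to 0.0600), 0.0724% (0.0513 to 0.102) and 0.0834% (0.0605 to 0.115). The intervals of the copies did not overlap in any replicate, although the listed arms differ: the counts of hsa-mir-101-2 include any from its unlisted 5p arm and those of hsa-mir-101-1 do not. In 54 single-copy hairpins with both arms listed and at least 30000 counts, the median share outside the arms was 0.0373%. Over pooled libraries 7 of them exceeded hsa-mir-101-1 and 20 exceeded hsa-mir-101-2. The tables do not show where in the hairpin these reads lay.

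The level of miR-101-3p varied little between replicates on the deposited scale. Its coefficient of variation was 3.81%, where counting of independent reads alone would give 0.336%. Among 163 miRNAs with at least 1000 counts in every library the median was 29.1%, and miR-101-3p had the 12th lowest. This steadiness depended on the scale. The median log2 ratio over the 781 names above 0 in all libraries was 0.48 for replicate 2 to replicate 1 and 0.57 for replicate 3 to replicate 1, whereas miR-101-3p changed by 0.10 and 0.03. Relative to the median miRNA it was therefore lower in replicate 2 by 0.37 and in replicate 3 by 0.55 on the log2 scale. After division by median-of-ratios size factors its level was 456702, 353801 and 314756 FPKM in replicates 1, 2 and 3, and its coefficient of variation was 19.5%, against a median of 21.7% and at place 69 of 163. On this scale replicate 1 was the highest and replicate 3 the lowest.

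**Figure D4:**
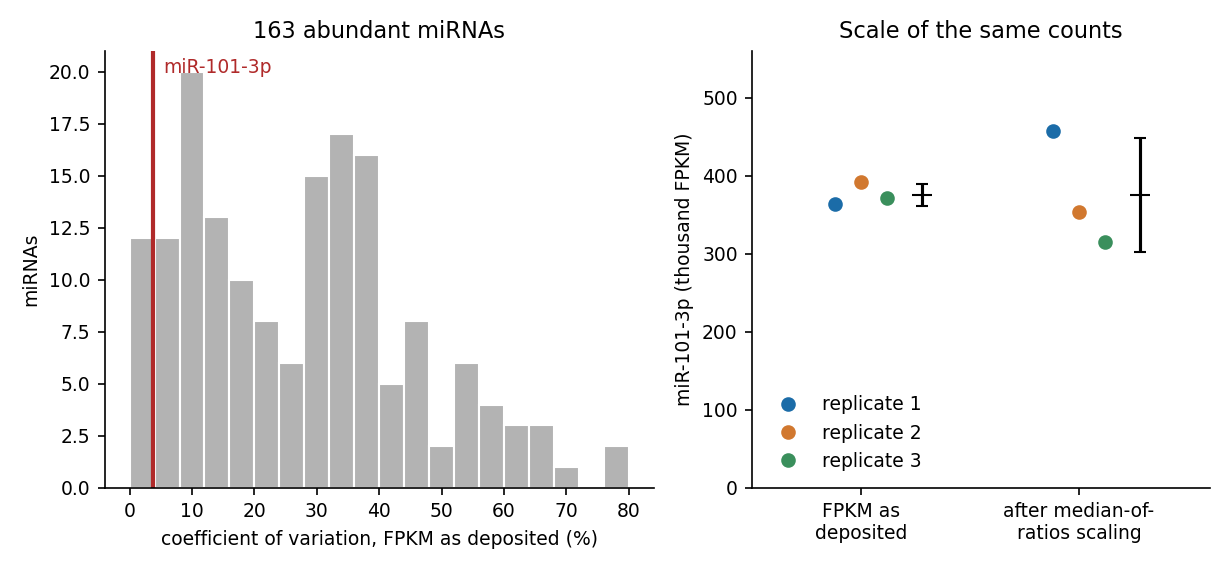
Left, coefficient of variation over 3 replicates (x axis, %) of 163 miRNAs with at least 1000 counts in every library, as deposited, where the red line marks miR-101-3p at 3.81%. Right, miR-101-3p (y axis, FPKM in units of 1000) in each replicate, with the mean and SD in black, as deposited and after median-of-ratios scaling, where the SD is 73328 FPKM against 14315.

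The closest patterns over the 3 libraries were sought among the 163 abundant miRNAs. The measure was the largest absolute difference in log2 FPKM after each miRNA was centred on its own mean. The nearest were miR-424-3p, with a largest difference of 0.03, miR-450a-5p with 0.04, let-7f-2-3p and miR-21-3p with 0.05 each, and miR-30e-5p with 0.06. Their mean levels ran from 4386 FPKM for let-7f-2-3p to 436555 FPKM for miR-30e-5p. With 3 libraries that share depth and scaling, likeness of this kind is weak.

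miR-144-3p, the relative of miR-101-3p by sequence and a miRNA of the red blood cell lineage, was at the low end of detection. It had 13, 23 and 18 counts, and 81.7 ± 28.1 FPKM (SD, n = 3). miR-101-3p exceeded it by 3557-fold to 6759-fold over the 3 replicates. Reads with the shared hexamer were thus almost entirely those of miR-101-3p, as far as the listed rows show.

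miR-101-3p was then set beside 15 other miRNAs that background knowledge names as repressors of EZH2. Of these, 12 had a row, and miR-138-5p, miR-214-3p and miR-137 had none. The let-7 members let-7f-5p (2016034 ± 246734 FPKM), let-7i-5p (1496131 ± 168223 FPKM), let-7g-5p (1242208 ± 120242 FPKM) and let-7a-5p (544905 ± 91012 FPKM) were above miR-101-3p in each of 3 replicates. miR-26a-5p, at 772837 ± 18675 FPKM (SD, n = 3), was too. These 5 differed from miR-101-3p by more than the larger SD of the pair. miR-26b-5p, at 304513 ± 110325 FPKM, was above it in 1 of 3 replicates, and the pair was not resolved.

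The other 6 of these miRNAs were below miR-101-3p in every replicate. They ran from let-7d-5p at 105060 ± 32299 FPKM and miR-98-5p at 96341 ± 22016 FPKM, through miR-124-3p at 55618 ± 32463 FPKM and let-7b-5p at 55353 ± 17900 FPKM, to let-7c-5p at 5012 ± 598 FPKM and let-7e-5p at 2756 ± 480 FPKM (SD, n = 3). By mean level miR-101-3p was thus at place 6 of 13. It made up 5.09%, 6.01% and 4.91% of the summed FPKM of these 13 in replicates 1, 2 and 3. The 12 listed miRNAs had a median level of 204787 FPKM, where the median of all 783 names was 269.5 FPKM. The sums are of reads, and ligation during library preparation favours some sequences, so they are not molar shares.

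**Figure D5:**
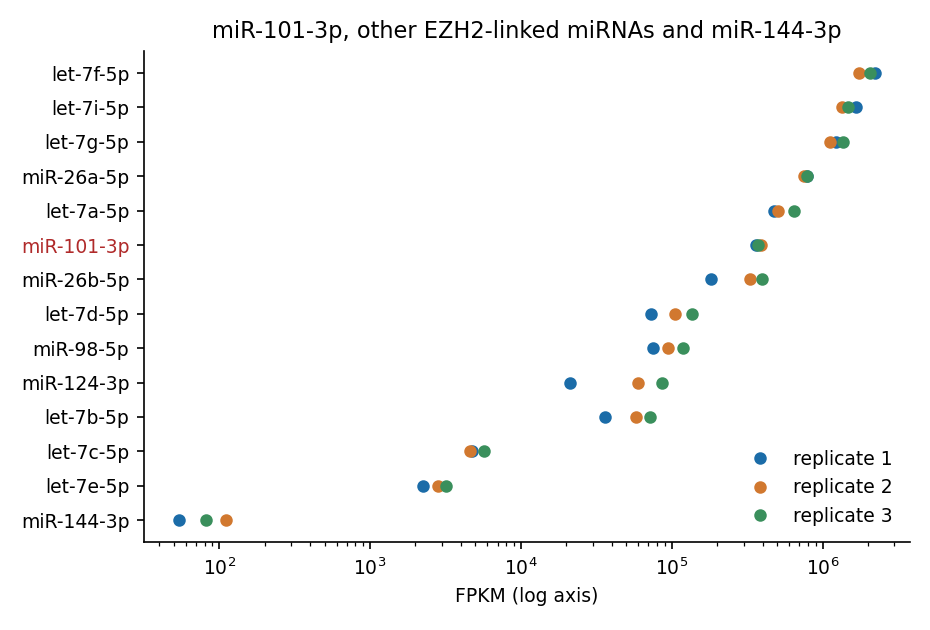
FPKM (log axis) in each of 3 replicates for miR-101-3p, the 12 other listed miRNAs named as repressors of EZH2, and miR-144-3p, ordered by mean. miR-101-3p is at place 6 of 13, and miR-144-3p lies below all of them at 81.7 FPKM on average.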

How the data were processed

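Small RNA libraries (NEB kit, HiSeq 2000) were counted by the authors against miRBase 21 mature and primary transcript sequences. The deposited tables give whole read counts and FPKM, scaled by the authors to feature length and library size. Novoalign 2.08.03 and the builds hg19 and mm10 are named in the submitters' processing notes, without their roles. Strand and multiple matches in counting are not given in the sources used here. The lengths implied by the deposited counts and FPKM were 20 and 21 for the arms of 21 and 22 bases, and 74 and 78 for the hairpins of 75 and 79, 1 base short. Every row reached at least 10 counts in some library, so rarer miRNAs have no row.

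Both 3p rows were summed. Shares have Wilson and counts exact Poisson 95% intervals, and ratios of counts have exact binomial ones. Spread is the SD over 3 replicate cultures. Named miRNAs were the 3 on each side by level, the 5 closest by pattern, the 3 next arm ratios and the listed EZH2 repressors, markers and seed relatives. The members and lists were chosen with earlier results of these data known. The scripts were tested on simulated data. Python 3.11.15, numpy 2.4.6, scipy 1.17.1, pandas 2.3.3, matplotlib 3.10.9 and Biopython 1.88 were used.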

Additional observations from a re-analysis of the deposited data

How the results depend on the processing

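Of 56 recomputed values of miR-101, 49 moved by less than the spread between replicates and 7 moved by more. For ranks and the coefficient of variation the limit was 1.5 times instead. A change of direction was defined only for log2 arm ratios, and 0 occurred. None of 141 values of 33 other named miRNAs and of the 3 next arm ratios moved. With 3 libraries, leaving 1 out cannot shift a mean by as much as their SD. Leave-one-out means were thus bound to count as unmoved and are no evidence of stability. With the full sequence length the miR-101-3p level was 357680 FPKM, an alternative chosen after seeing the data. With each 3p row taken separately the rank was 38. With median-of-ratios scaling the coefficient of variation was 19.5%. With all hsa-mir-101-2 counts outside its 3p row added to the 5p side, also chosen after seeing the data, the mean log2 arm ratio was 11.29. The mean count outside the arms was 115 per library for both hairpins, 85.7 for hsa-mir-101-1 alone and 29 for hsa-mir-101-2 alone, as fewer counts enter by construction. The cause of the change with scaling was not tested.

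Leaving out each replicate in turn gave 367521 to 381234 FPKM for miR-101-3p, 28 to 48.4 FPKM for miR-101-5p, a coefficient of variation of 1.27% to 5.13% (lowest without replicate 2), rank 23 to 25, and a log2 arm ratio of 12.88 (without replicate 1) to 13.93. No paired analysis was possible because there was 1 group. The 26 counts of the 5p arm over all libraries limit the arm ratio.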
